A study of Mus musculus with 11 samples.

Results

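The genes described here are 53 genes of the cell division cycle and of DNA replication, taken by symbol from the 52636 genes of the count table. Each symbol matched 1 gene, and all 53 passed the filter on low counts that left 13735 genes to test. They were placed in 8 groups by role: 7 G1 cyclins and their kinases, 4 E2F factors and pocket proteins, 4 inhibitors of cyclin-dependent kinases, 11 origin licensing and helicase factors, 6 replication fork and nucleotide supply genes, 9 drivers of mitotic entry and exit, 10 spindle, kinetochore and cytokinesis genes, and the 2 proliferation markers Mki67 and Top2a. The last 3 groups are called the 21 mitotic genes below.

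RNA was sequenced from CD8 T cells of C57BL/6 mouse spleens. The naive group holds 3 libraries of CD44lo CD8 T cells. Both memory groups hold 4 libraries of T cells that bind an NP396 tetramer, which marks cells specific for 1 peptide of the nucleoprotein of the virus LCMV. These groups differ in the sort for a high (CD45RBhi) or low (CD45RBlo) level of the CD45RB isoform of the phosphatase CD45. The mice of the memory groups received 200000 pfu of LCMV Armstrong, a strain that is cleared after an acute infection, into the peritoneum, and their cells were sorted 42 to 45 days later (week 6) to a purity above 99%. No genotype other than C57BL/6 and no further agent is named for any group. The labels of the naive libraries repeat the infection text and add a time entry of 6 to 8 weeks whose meaning is not stated, so the ages of the mice are not known here. No label names the animal behind a replicate. The spread that p-values rest on may thus be technical in part.

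Cell division is driven by cyclins that activate cyclin-dependent kinases. In G1, cyclin D with Cdk4 or Cdk6 and cyclin E with Cdk2 phosphorylate the pocket proteins, which otherwise hold E2F factors and, in the DREAM complex, keep cell cycle promoters silent in resting cells. Origins are licensed by loading the Mcm helicase, replication then needs nucleotides and a sliding clamp, and mitosis follows under cyclin B with Cdk1. Naive T cells are quiescent, and memory T cells are known to divide slowly as they maintain themselves.

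Promoter sequences are shown first because genes of mitosis and genes of replication are known for the promoter elements they share. The windows run from 250 bases before to 50 bases after the start site in RefSeq (build GRCm38.p6), and 42 of the 53 members had at least 1 window there. Capitals mark matches, on either strand, to the CHR element of G2 and mitotic genes (TTTGAA or TTCGAA), to the CCAAT box, and to an E2F site (TTTCCCGC, TTTCGCGC, TTTGGCGC or TTTGCCGC). Matches to different elements shared a base in 1 window of a member. For 4 mitotic genes and 2 helicase genes, chosen after their values were seen, the 250 bases before the start site read as follows, 5′ to 3′.
Ccnb2 (chr9:70421555-70421804, minus strand): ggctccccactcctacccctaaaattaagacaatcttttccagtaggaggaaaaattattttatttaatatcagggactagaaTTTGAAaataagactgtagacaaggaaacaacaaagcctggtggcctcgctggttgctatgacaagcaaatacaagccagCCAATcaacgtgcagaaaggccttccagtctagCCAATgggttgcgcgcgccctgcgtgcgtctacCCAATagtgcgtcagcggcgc
Cdk1 (chr10:69352913-69353162, minus strand): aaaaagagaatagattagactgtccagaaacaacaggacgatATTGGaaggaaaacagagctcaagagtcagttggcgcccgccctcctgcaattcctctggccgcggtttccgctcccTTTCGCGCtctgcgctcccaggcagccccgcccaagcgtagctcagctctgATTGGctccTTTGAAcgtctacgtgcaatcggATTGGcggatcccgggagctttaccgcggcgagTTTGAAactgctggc
Mki67 (chr7:135716380-135716629, minus strand): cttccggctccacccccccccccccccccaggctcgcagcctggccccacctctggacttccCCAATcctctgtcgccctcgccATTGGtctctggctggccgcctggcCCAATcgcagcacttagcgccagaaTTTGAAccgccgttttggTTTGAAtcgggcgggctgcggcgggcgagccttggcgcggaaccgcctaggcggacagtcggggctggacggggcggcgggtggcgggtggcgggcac
Top2a (chr11:99024190-99024439, minus strand): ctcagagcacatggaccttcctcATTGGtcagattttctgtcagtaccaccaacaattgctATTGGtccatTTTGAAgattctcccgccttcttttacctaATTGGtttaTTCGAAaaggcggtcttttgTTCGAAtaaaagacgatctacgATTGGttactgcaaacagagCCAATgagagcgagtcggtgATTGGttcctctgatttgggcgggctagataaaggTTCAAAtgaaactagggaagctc
Mcm5 (chr8:75109259-75109508, plus strand): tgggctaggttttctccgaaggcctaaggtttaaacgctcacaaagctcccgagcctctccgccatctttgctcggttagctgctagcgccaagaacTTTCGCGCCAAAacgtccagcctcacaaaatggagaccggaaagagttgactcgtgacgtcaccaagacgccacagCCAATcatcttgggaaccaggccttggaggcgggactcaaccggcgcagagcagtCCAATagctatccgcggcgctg
Mcm6 (chr1:128359706-128359955, minus strand): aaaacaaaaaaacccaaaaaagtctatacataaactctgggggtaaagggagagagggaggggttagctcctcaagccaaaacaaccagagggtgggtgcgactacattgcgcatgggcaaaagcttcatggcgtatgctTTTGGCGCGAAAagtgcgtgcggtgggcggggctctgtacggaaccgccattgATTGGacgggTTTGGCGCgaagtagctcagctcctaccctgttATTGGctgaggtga
A CHR match lay in 11 of 15 mitotic genes with a window (73.3%), in 4 of 15 replication genes (26.7%) and in 21.7% of all genes with a window. A CCAAT box lay in 13 of the 15 mitotic genes (86.7%), in 10 of the 15 replication genes (66.7%) and in 41.1% of all genes. An E2F match lay in 1 of the 15 mitotic genes (6.67%), in 6 of the 15 replication genes (40%) and in 2.6% of all genes. The windows of Nusap1, Birc5 and Tyms held none of these letters. A match describes letters in a window, and no binding was measured.

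Total counts were 18.0 to 23.2 M per library. Levels below are in CPM, the counts of every library brought to 1 shared total, as mean ± SD over libraries. Fold changes are on the log2 scale, ± SE, from 1 edgeR fit of all 11 libraries. A gene is said to be higher or lower where its p, adjusted over all genes tested, was below 0.05. A count of 0 in a library allows up to 0.130 to 0.170 CPM (3 counts, counting error only). The summed level of 6 CD8 T cell markers was 7005 to 7466 CPM in naive, 7309 to 8379.6 in CD45RBhi and 6781 to 8199.9 in CD45RBlo libraries, and that of 6 naive T cell markers was 5282 to 5638, 582 to 912 and 409.8 to 693. RNA of markers of other spleen cells was present and differed between the groups. The summed level of 9 B cell markers was 1134 to 1298 CPM in naive and 202 to 515 and 204 to 454 in CD45RBhi and CD45RBlo libraries, and that of 8 erythroid markers was 235 to 520.2, 0.434 to 1.67 and 0.824 to 25.2. Of the B cell sum, Ighm made up 1159 ± 75.3 CPM in naive libraries. Igkc did not pass against naive cells, at 14.5 ± 7.001 CPM in naive, at 17.6 ± 4.41 in CD45RBhi and at 20.2 ± 5.47 in CD45RBlo cells, and Cd22 was higher in both memory groups, at 7.93 and 13.9 CPM against 1.88 CPM. Both sums were highest in naive libraries, where the mitotic genes were lowest, and their part in the results was not tested. Germinal centre B cells and plasma cells also divide in the spleen. Their 8 markers summed to 33.3 to 35.9, 67.7 to 79.6 and 62.2 to 76.2 CPM, mostly from S1pr2 in the memory libraries. Pou2af1, Jchain and Mzb1, which are among them, were lower in both memory groups, Pou2af1 being at 17.2 ± 2.29 CPM in naive, at 6.33 ± 2.18 in CD45RBhi and at 2.96 ± 1.17 in CD45RBlo cells. Rgs13 had no count in any library, and their part in the results was not tested. The 8 markers of myeloid cells and their precursors summed to 24.1 to 44.4, 0.434 to 2.19 and 2.21 to 4.14 CPM, mostly from Lyz2 and Csf1r, both lower in memory libraries. Among them Mpo and Elane, which mark dividing precursors, had 0 counts in every library.

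Against naive cells, more members rose than fell in both memory groups. In CD45RBhi cells 35 of 53 were higher and 1 was lower, where 22.3% and 19.1% of all genes tested were higher and lower (41.5% in all). In CD45RBlo cells 24 were higher and 1 was lower, where the shares for all genes were 22.4% and 19.8% (42.2% in all). The median log2 fold change of the members was 0.84 in CD45RBhi and 0.54 in CD45RBlo, and that of all genes was -0.0077 and -0.0082. Levels of 34 members in CD45RBhi and 22 in CD45RBlo lay wholly above the naive libraries, against 24.1% and 25.2% of all genes. Mcm7, the gene called lower in each group, lay wholly below, as did 23.3% and 24.3% of all genes. Both comparisons use the same 3 naive libraries and are not independent. With libraries scaled by their totals alone, the median of all genes moved to -0.16 and -0.14. Of all genes, 2301 were then higher and 3724 lower in CD45RBhi, and 2356 higher and 3609 lower in CD45RBlo. Of the members, 29 were higher and 1 lower in CD45RBhi, and 20 higher and 2 lower in CD45RBlo. In bulk RNA, more dividing cells and more of these transcripts per cell cannot be told apart.

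**Figure D1:**
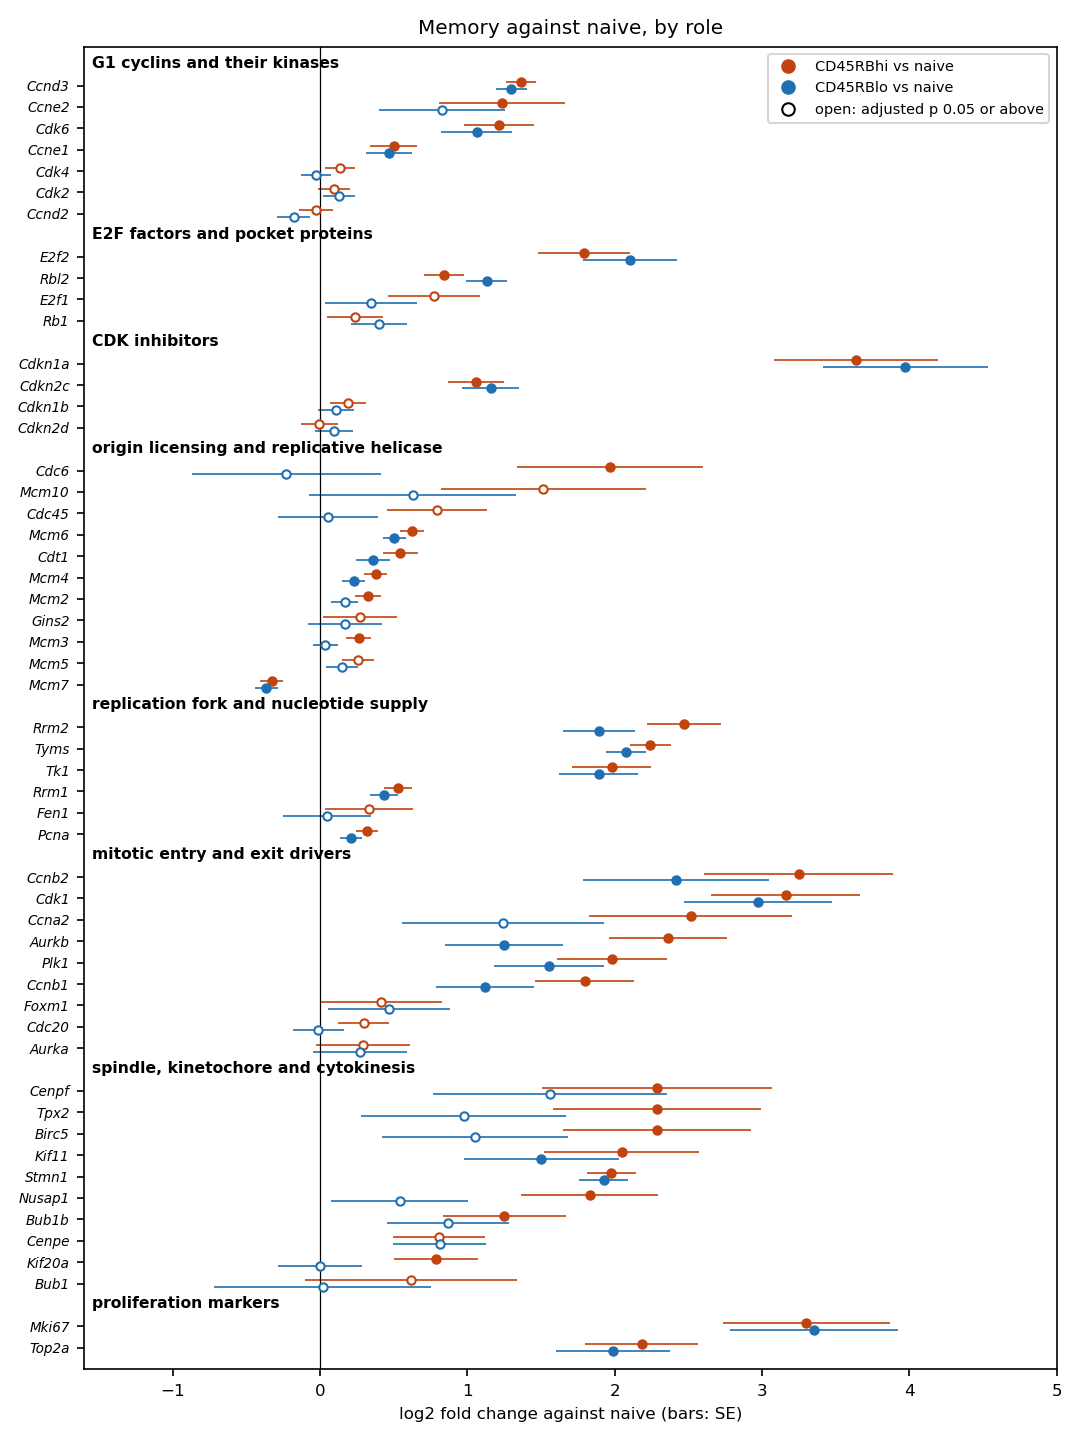
Log2 fold change against naive cells (points, ± SE) of the 53 members in CD45RBhi and CD45RBlo memory cells, ordered by role, with filled points where the adjusted p was below 0.05. Cdkn1a and some mitotic genes, among them Mki67, Ccnb2 and Cdk1, lie farthest to the right. Other mitotic genes, such as Aurka and Cdc20, and most Mcm genes lie near 0, and Mcm7 is the gene called lower.

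The 2 proliferation markers were higher in both memory groups. Mki67, whose product coats mitotic chromosomes and is the usual marker of cycling cells, was at 1.23, 0.778 and 2.02 CPM in naive replicates 1 to 3, at 12.5, 5.08, 16.4 and 19.5 CPM in CD45RBhi replicates 1 to 4 and at 14.6, 4.75, 17.1 and 18.8 CPM in CD45RBlo replicates 1 to 4. Every memory library lay above every naive one, and in each memory group replicate 2 was lowest. Its log2 fold change was 3.30 ± 0.568 in CD45RBhi (adjusted p = 0.000486) and 3.35 ± 0.569 in CD45RBlo (adjusted p = 0.000409). Top2a, the topoisomerase that untangles replicated chromosomes, was at 5.53, 3.27 and 5.56 CPM in naive, at 19.4, 12.5, 24.5 and 30.9 in CD45RBhi and at 18.7, 8.82, 26.0 and 22.8 in CD45RBlo libraries, again without overlap and again lowest in memory replicate 2. It rose by 2.18 ± 0.386 and 1.99 ± 0.384 on the log2 scale (adjusted p = 0.000595 and 0.00107).

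Of the 9 drivers of mitotic entry and exit, 6 were higher in CD45RBhi and 5 in CD45RBlo than in naive cells. Cdk1, the mitotic kinase, was at 1.10, 0.156 and 1.18 CPM in naive, at 5.12, 4.69, 7.56 and 12.2 in CD45RBhi and at 7.42, 4.99, 6.14 and 7.32 in CD45RBlo libraries. It rose without overlap, by 3.16 ± 0.503 in CD45RBhi and 2.97 ± 0.502 in CD45RBlo (log2, adjusted p = 0.000266 and 0.000395). Ccnb1, a cyclin B that activates it, was at 2.33, 1.92 and 1.82 CPM in naive, at 7.02, 5.12, 6.37 and 9.73 in CD45RBhi and at 4.48, 2.18, 4.97 and 6.03 in CD45RBlo libraries. The naive and CD45RBhi libraries were apart, while CD45RBlo replicate 2 lay among the naive ones. Ccnb1 rose by 1.80 ± 0.334 in CD45RBhi and by 1.12 ± 0.332 in CD45RBlo, and the second call was lost, with an adjusted p of 0.0534 to 0.0589 without naive replicate 2 or 3. Ccnb2, the other cyclin B listed, was at 1.51, 0.830 and 1.43 CPM in naive, at 12.8, 4.38, 13.8 and 17.2 in CD45RBhi and at 12.1, 1.502, 5.39 and 8.06 in CD45RBlo libraries, a log2 rise of 3.25 ± 0.643 and 2.42 ± 0.634. CD45RBlo replicate 2 lay just below the highest naive library.

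Ccna2, the cyclin of S phase and G2, was at 0.777, 1.97 and 1.13 CPM in naive, at 8.48, 3.30, 8.06 and 9.73 in CD45RBhi and at 5.10, 0.242, 3.36 and 3.55 in CD45RBlo libraries. It rose in CD45RBhi (2.52 ± 0.691, adjusted p = 0.0107, but 0.0513 without naive replicate 1). In CD45RBlo its log2 fold change was 1.24 ± 0.683 (adjusted p = 0.166), with replicate 2 below every naive library and the other 3 replicates above. Aurkb, the kinase of the chromosomal passenger complex, was at 1.05, 0.467 and 0.985 CPM in naive, at 4.06, 3.30, 3.98 and 6.02 in CD45RBhi and at 1.59, 1.60, 3.36 and 1.47 in CD45RBlo libraries. All memory libraries were above the naive ones, by 2.36 ± 0.400 and 1.25 ± 0.398 on the log2 scale (adjusted p = 0.000425 and 0.0231). In CD45RBlo this call was lost, with an adjusted p of 0.0676 to 0.0952 without naive replicate 2 or CD45RBlo replicate 3. Plk1, a kinase of mitotic entry and cytokinesis, rose in both groups (log2 1.98 ± 0.374 and 1.55 ± 0.373). Foxm1, the factor that activates many mitotic promoters, passed in neither. It was at 3.78 ± 1.19 CPM in naive, at 5.05 ± 2.63 in CD45RBhi and at 5.23 ± 1.89 in CD45RBlo libraries, with log2 fold changes of 0.41 ± 0.413 and 0.47 ± 0.413. Aurka (0.29 and 0.27) and Cdc20 (0.30 and -0.01), which act at spindle poles and in mitotic exit, did not pass the test either.

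Of the 10 spindle, kinetochore and cytokinesis genes, 8 were higher in CD45RBhi and 2 in CD45RBlo. Stmn1, which destabilises microtubules and is high in dividing lymphocytes, was at 6.90, 8.56 and 8.17 CPM in naive, at 25.6, 27.2, 31.7 and 39.6 in CD45RBhi and at 32.2, 27.9, 27.1 and 32.5 in CD45RBlo libraries. It rose without overlap, by 1.98 ± 0.167 and 1.93 ± 0.167 (adjusted p = 9.77e-07 and 1.17e-06). Nusap1, which binds spindle microtubules, was at 1.32, 1.14 and 1.03 CPM in naive, at 3.96, 2.04, 4.33 and 6.38 in CD45RBhi and at 1.47, 0.775, 1.44 and 3.09 in CD45RBlo libraries. It rose in CD45RBhi (1.83 ± 0.466, adjusted p = 0.00685), whereas the CD45RBlo libraries overlapped the naive ones (0.54 ± 0.466, adjusted p = 0.383). Birc5 (survivin), a subunit of the passenger complex, was at 0.959, 0.882 and 1.67 CPM in naive, at 5.57, 1.69, 5.67 and 10.1 in CD45RBhi and at 4.19, 0.581, 2.40 and 2.63 in CD45RBlo libraries. It was higher in CD45RBhi by 2.29 ± 0.637 (adjusted p = 0.0115, but 0.0509 without naive replicate 2), and its CD45RBlo replicate 2 lay below all naive libraries.

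The other members of this group were less steady. Kif20a, a kinesin of cytokinesis, was at 3.24, 4.30 and 2.71 CPM in naive, at 6.92, 4.43, 4.92 and 7.32 in CD45RBhi and at 4.48, 2.18, 3.79 and 3.27 in CD45RBlo libraries. Its rise in CD45RBhi (0.79 ± 0.284, adjusted p = 0.0417) had an adjusted p of 0.0513 to 0.148 without naive replicate 1 or 3 or CD45RBhi replicate 1 or 4 or CD45RBlo replicate 3 or 4. Also, 29.3% of its exon bases overlap Cdc23 on the other strand, and since strandedness is not given, their reads cannot be told apart. Kif11, the motor that separates spindle poles, rose by 2.05 ± 0.528 in CD45RBhi and 1.5 ± 0.524 in CD45RBlo, the latter lost at an adjusted p of 0.0586 to 0.134 without naive replicate 1 or 3 or CD45RBlo replicate 1, 3 or 4. Calls in CD45RBhi for the checkpoint kinase Bub1b (1.25 ± 0.417), the kinetochore protein Cenpf (2.29 ± 0.781) and the spindle factor Tpx2 (2.29 ± 0.704) also ended when certain single libraries were left out. The adjusted p of Bub1b became 0.078 to 0.0939 without naive replicate 1, 2 or 3 or CD45RBhi replicate 4. Its log2 fold change was 1.25 to 1.26 without a naive library and 0.86 without CD45RBhi replicate 4. That of Cenpf became 0.0566 to 0.115 without naive replicate 1, 2 or 3 or CD45RBhi replicate 1 or 4, and that of Tpx2 0.0526 to 0.0728 without naive replicate 2 or CD45RBhi replicate 4. Cenpe (0.81 and 0.81) and Bub1 (0.62 and 0.02) did not pass in either group, and Bub1 stayed at or below 1.20 CPM in every library.

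**Figure D2:**
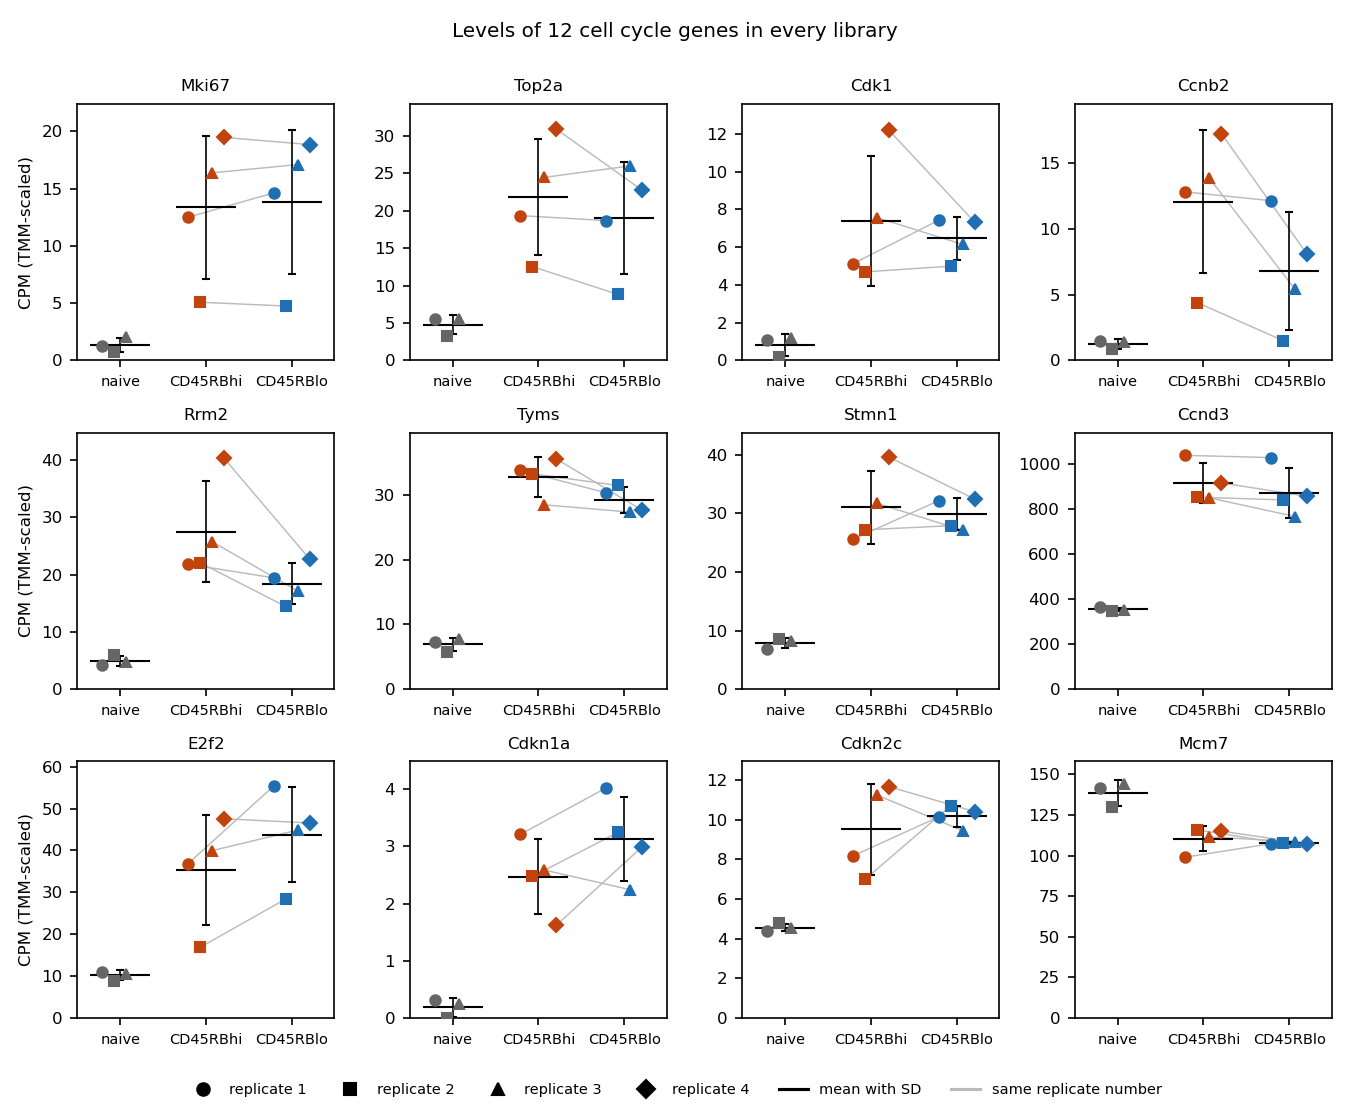
CPM of 12 members in each library (points), with mean ± SD per group and gray lines that join CD45RBhi and CD45RBlo libraries of the same number. Mki67, Top2a, Cdk1, Rrm2, Tyms, Stmn1, Ccnd3, E2f2, Cdkn1a and Cdkn2c lie higher in all 8 memory libraries than in the 3 naive ones, and Mcm7 lies lower. For Ccnb2, a CD45RBlo library lies among the naive ones.

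Of the 6 genes of fork and nucleotide supply, 5 were higher in each memory group. Tyms, which makes thymidylate, was at 7.35, 5.70 and 7.68 CPM in naive, at 33.8, 33.2, 28.5 and 35.5 in CD45RBhi and at 30.3, 31.4, 27.3 and 27.6 in CD45RBlo libraries. The 8 memory libraries lay close together and above the naive ones, and the log2 fold changes were 2.24 ± 0.137 and 2.08 ± 0.137 (adjusted p = 5.06e-08 and 8.56e-08), the smallest p of any member in each comparison. Rrm2, the regulated subunit of ribonucleotide reductase, was at 4.29, 5.91 and 4.68 CPM in naive, at 21.8, 22.1, 25.8 and 40.3 in CD45RBhi and at 19.4, 14.4, 17.1 and 22.7 in CD45RBlo libraries. The gene rose by 2.47 ± 0.250 and 1.89 ± 0.246 (adjusted p = 5.33e-06 and 4.6e-05), without overlap and with CD45RBhi replicate 4 highest. Its partner Rrm1 was abundant in naive cells already (81.0 ± 8.97 CPM) and rose by 0.53 ± 0.0960 and 0.43 ± 0.0958. Tk1, which salvages thymidine, was at 1.28, 2.02 and 2.31 CPM in naive, at 5.92, 8.72, 7.21 and 7.64 in CD45RBhi and at 4.65, 7.56, 8.54 and 7.001 in CD45RBlo libraries. It too was higher in every memory library (1.98 ± 0.270 and 1.89 ± 0.270).

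Pcna, the sliding clamp, was at 76.9, 79.2 and 77.7 CPM in naive, at 97.6, 102, 99.3 and 89.8 in CD45RBhi and at 87.2, 91.8, 87.8 and 93.7 in CD45RBlo libraries. Every memory library was above the naive ones, but the steps were small, 0.32 ± 0.0755 and 0.21 ± 0.0754 on the log2 scale (adjusted p = 0.00462 and 0.0403). The CD45RBlo call had an adjusted p of 0.0566 to 0.134 without naive replicate 1, 2 or 3 or CD45RBhi replicate 3 or CD45RBlo replicate 2 or 4. With libraries scaled by totals, the adjusted p was 0.109 in CD45RBhi and 0.489 in CD45RBlo. Fen1, the flap endonuclease of Okazaki fragments, did not pass (0.33 and 0.05). It stayed between 1.53 and 3.56 CPM, and 78.8% of its exon bases overlap Gm10143 on the other strand.

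Among the 11 licensing and helicase genes, 6 were higher and 1 lower in CD45RBhi, and 3 were higher and 1 lower in CD45RBlo. The Mcm2 to Mcm7 genes, which encode the subunits of the replicative helicase, were abundant in resting naive cells. Per kilobase of exon, the 6 lay between 22.4 and 53.7 CPM in naive, 24.9 and 82.9 in CD45RBhi and 24.3 and 76.2 in CD45RBlo cells. Of the factors that load or switch on that helicase, Cdt1 lay within that range, at 22.6, 32.9 and 29.0 CPM per kilobase, and so did Gins4, which is not a member, at 38.3, 42.0 and 42.1. The others named here lay below it. Cdc6, the loader, was at 0.250, 0.983 and 0.214 CPM per kilobase in naive, CD45RBhi and CD45RBlo cells, and the activators Mcm10 and Cdc45 were at 0.0783, 0.225 and 0.121 and at 1.15, 2.00 and 1.19.

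The helicase subunits did not all move in 1 direction. Mcm6 was at 262, 246 and 244 CPM in naive, at 366, 375, 389 and 417 in CD45RBhi and at 371, 372, 314 and 366 in CD45RBlo libraries, the largest rise of the 6 (0.63 ± 0.0810 and 0.51 ± 0.0808, adjusted p = 4.99e-05 and 0.00026). Mcm7 (ENSMUSG00000029730) lies on chromosome 5 from 138164583 to 138172422 in GENCODE M21 (GRCm38). It fell, from 142, 129.8 and 144 CPM in naive to 99.0, 116, 112 and 115 in CD45RBhi and 107, 108, 109 and 107 in CD45RBlo libraries (-0.33 ± 0.0783 and -0.36 ± 0.0783, adjusted p = 0.00459 and 0.00227). The memory libraries lay wholly below the naive ones for Mcm7 and wholly above for Mcm6. Of the exon bases of Mcm7, 7.25% overlap Ap4m1 on the other strand. Mcm2 was at 163, 161 and 143 CPM in naive, at 182, 174, 218 and 206 in CD45RBhi and at 179, 176, 168 and 175 in CD45RBlo libraries. It was higher in CD45RBhi (0.33 ± 0.0903, adjusted p = 0.0113, but 0.0625 without naive replicate 3) and did not pass in CD45RBlo (0.17 ± 0.0900). Mcm5 was at 104, 98.1 and 111 CPM in naive, at 131, 99.6, 131 and 139 in CD45RBhi and at 126, 109, 114 and 114 in CD45RBlo libraries and passed in neither group (0.26 ± 0.110 and 0.15 ± 0.110). Replicate 2 of each memory group lay within its naive range, and the other memory libraries lay above it. Mcm4 rose by 0.38 ± 0.0781 and 0.23 ± 0.0778, the latter lost at an adjusted p of 0.0795 to 0.118 without naive replicate 2 or 3 or CD45RBlo replicate 1 or 4, and Mcm3 rose in CD45RBhi by 0.26 ± 0.0872, lost at an adjusted p of 0.0521 to 0.121 without naive replicate 2 or 3 or CD45RBhi replicate 3 or 4 or CD45RBlo replicate 4.

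Scaling by library totals alone, in which the typical gene shifts down in memory cells, gave adjusted p of 0.11 for Mcm2 and 0.318 for Mcm3 in CD45RBhi and 0.337 for Mcm4 in CD45RBlo. Mcm3 in CD45RBlo, which did not pass, turned from 0.04 to -0.10. Under that scaling Mcm6 was at 0.48 and 0.37 and Mcm7 at -0.48 and -0.50.

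Cdc6 (ENSMUSG00000017499) lies on chromosome 11 from 98907801 to 98923940. It was at 0.731, 0.830 and 2.36 CPM in naive, at 2.41, 3.17, 5.72 and 9.26 in CD45RBhi and at 1.87, 0.291, 0.748 and 1.57 in CD45RBlo libraries. All CD45RBhi libraries were above all naive and all CD45RBlo libraries, and it was higher than in naive cells by 1.97 ± 0.632 (adjusted p = 0.0242, but 0.0769 to 0.0979 without naive replicate 1 or 2 or CD45RBhi replicate 4). In CD45RBlo the log2 fold change was -0.23 ± 0.643 (adjusted p = 0.805). Cdt1, its partner in loading, rose by 0.55 ± 0.117 in CD45RBhi and 0.36 ± 0.116 in CD45RBlo, where the adjusted p became 0.0552 to 0.0821 without naive replicate 1, 2 or 3 or CD45RBlo replicate 1 or 2. With library totals it was 0.145 there. Cdc45, Mcm10 and Gins2, all needed to activate the helicase, did not pass against naive cells. Their log2 fold changes were 0.79 ± 0.339 and 0.05 ± 0.339, 1.51 ± 0.696 and 0.63 ± 0.704, and 0.27 ± 0.251 and 0.17 ± 0.252 in CD45RBhi and CD45RBlo. Of the exon bases of Gins2, 67.3% overlap Gse1 on the other strand.

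Of the 7 G1 cyclins and kinases, 4 were higher in CD45RBhi and 3 in CD45RBlo. Ccnd3 (ENSMUSG00000034165) lies on chromosome 17 from 47505051 to 47599691. This D cyclin was at 364, 349 and 353 CPM in naive, at 1039.7, 854, 851 and 917 in CD45RBhi and at 1029.9, 842, 768 and 858 in CD45RBlo libraries. The groups were far apart, by 1.36 ± 0.105 and 1.30 ± 0.105 on the log2 scale (adjusted p = 4.11e-07 and 6.07e-07). Ccnd2, the other D cyclin listed, was at 695, 758 and 735 CPM in naive, at 803, 649, 656 and 755 in CD45RBhi and at 762, 592, 547 and 675 in CD45RBlo libraries and did not pass (-0.03 ± 0.114 and -0.18 ± 0.113). With libraries scaled by their totals it was called lower in CD45RBlo (-0.32, adjusted p = 0.0242). Per kilobase, Ccnd3 was at 40.5 and Ccnd2 at 77.5 CPM in naive cells, and at 104 and 76.0 in CD45RBhi and 99.6 and 68.5 in CD45RBlo cells. By this measure Ccnd2 was the higher of the D cyclins listed in naive cells and Ccnd3 the higher in memory cells. The lengths count every annotated exon base of a gene, 9409 for Ccnd2 and 8775 for Ccnd3. Which transcripts the cells use was not measured, so the true order of these genes may differ.

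Of the kinases bound by the D cyclins, Cdk6 rose and Cdk4 did not pass the test. Cdk6 was at 12.6, 17.4 and 17.3 CPM in naive, at 45.8, 25.6, 38.4 and 36.3 in CD45RBhi and at 38.4, 20.5, 38.4 and 34.4 in CD45RBlo libraries, a rise of 1.21 ± 0.240 and 1.06 ± 0.239 (adjusted p = 0.00132 and 0.00305). All memory libraries were above the naive ones, and replicate 2 was lowest in each memory group. Cdk4 was at 258, 244 and 259 CPM in naive, at 249, 319, 269 and 278 in CD45RBhi and at 221, 284, 245 and 245 in CD45RBlo libraries and did not pass (0.14 ± 0.0999 and -0.03 ± 0.0996). Per kilobase Cdk4 remained far above Cdk6, with 85.8 against 2.61 CPM in CD45RBhi and 76.6 against 2.35 in CD45RBlo cells, although 19.7% of its exon bases overlap Tspan31. Of the cyclin E genes, Ccne1 rose by 0.50 ± 0.157 and 0.47 ± 0.157 and Ccne2 by 1.23 ± 0.428 in CD45RBhi. These calls were fragile. For CD45RBhi the adjusted p of Ccne1 became 0.0547 to 0.0997 without naive replicate 1 or CD45RBhi replicate 3, and that of Ccne2 became 0.0623 to 0.131 without naive replicate 2 or 3 or CD45RBhi replicate 1 or 4. For CD45RBlo that of Ccne1 became 0.0607 to 0.123 without naive replicate 1 or 3 or CD45RBlo replicate 3 or 4. Scaled by totals, the adjusted p was 0.103 and 0.119 for Ccne1 and 0.0522 for Ccne2. Cdk2, their kinase, was at 27.7 ± 2.02 CPM in naive, at 29.6 ± 2.02 in CD45RBhi and at 30.3 ± 3.08 in CD45RBlo cells and did not pass.

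Some genes that restrain the cycle rose beside those that drive it. Of the 4 inhibitors of cyclin-dependent kinases, 2 were higher in each memory group. Cdkn1a (p21), which blocks Cdk2 and is induced by p53 and by mitogens, was at 0.320, 0 and 0.246 CPM in naive, at 3.21, 2.47, 2.59 and 1.62 in CD45RBhi and at 4.02, 3.25, 2.24 and 2.99 in CD45RBlo libraries. Naive counts were 7, 0 and 5 reads, so the fitted rises of 3.64 ± 0.559 and 3.97 ± 0.559 (adjusted p = 0.000201 and 8.97e-05) rest on few reads at the low end. Cdkn2c (p18), which blocks Cdk4 and Cdk6, was at 4.39, 4.77 and 4.53 CPM in naive, at 8.17, 6.99, 11.2 and 11.7 in CD45RBhi and at 10.1, 10.7, 9.45 and 10.4 in CD45RBlo libraries. It rose without overlap by 1.06 ± 0.192 and 1.16 ± 0.193 (adjusted p = 0.00073 and 0.000356).

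The inhibitors already abundant in naive cells did not pass. Cdkn2d (p19), of the same family as Cdkn2c, was at 174, 169.5 and 157 CPM in naive, at 133, 191, 167 and 173 in CD45RBhi and at 154, 212, 175 and 170.4 in CD45RBlo libraries (-0.01 ± 0.127 and 0.09 ± 0.127). Cdkn1b (p27), a keeper of quiescence that acts on cyclin E with Cdk2, was at 32.5, 26.3 and 28.2 CPM in naive, at 36.7, 34.5, 30.2 and 31.0 in CD45RBhi and at 36.5, 29.0, 30.3 and 29.2 in CD45RBlo libraries (0.19 ± 0.122 and 0.11 ± 0.122). Per kilobase Cdkn2d stood at 106, 106 and 113 CPM in naive, CD45RBhi and CD45RBlo cells. Cdkn2c stood at 1.70, 3.54 and 3.79 and Cdkn1a at 0.0531, 0.696 and 0.880, so the inhibitors that rose stayed well below Cdkn2d.

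Of the E2F factors and pocket proteins, E2f2 and Rbl2 were higher in both memory groups. E2f2, an activating E2F, was at 11.1, 8.82 and 10.6 CPM in naive, at 36.8, 16.8, 39.9 and 47.6 in CD45RBhi and at 55.3, 28.4, 44.9 and 46.6 in CD45RBlo libraries, a rise of 1.79 ± 0.313 and 2.10 ± 0.316 without overlap (adjusted p = 0.000544 and 0.000156). Rbl2 (ENSMUSG00000031666) lies on chromosome 8 from 91070057 to 91123844. Its product p130 is the pocket protein of the DREAM complex in resting cells, and it was at 188, 192 and 169 CPM in naive, at 353, 249.6, 369 and 338 in CD45RBhi and at 377, 339.8, 429 and 455 in CD45RBlo libraries. Rbl2 rose by 0.84 ± 0.136 and 1.13 ± 0.138 (adjusted p = 0.000308 and 2.66e-05), and CD45RBhi replicate 2 was the lowest memory library. Rb1, the retinoblastoma protein, was at 34.2, 41.7 and 38.5 CPM in naive, at 57.0, 31.6, 46.2 and 45.5 in CD45RBhi and at 57.1, 36.5, 53.9 and 53.9 in CD45RBlo libraries and passed in neither group (0.24 ± 0.191 and 0.40 ± 0.191). Replicate 2 of each memory group lay within or below the naive range, and the other memory libraries lay above it. E2f1 did not pass either (0.77 ± 0.312 and 0.34 ± 0.312).

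Between CD45RBhi and CD45RBlo no member passed the test when replicate numbers were ignored, while 0.124% of all genes did (0.0801% higher and 0.0437% lower). At an unadjusted p below 0.05, 11 members were higher and 1 was lower in CD45RBhi, against 9% of all genes in either direction. DESeq2 called 1 member, Cdc6, and 144 of all 13735 genes tested (74 higher and 70 lower). Of the 53 log2 fold changes, 43 were positive and the median was 0.16, while the median of all genes was -0.0042. Without 1 library, 38 to 46 were positive and the median was 0.13 to 0.21, both lowest without CD45RBhi replicate 4. Without CD45RBhi replicates 3 and 4, 33 were positive and the median was 0.099. Cdc6 was the 1 member whose CD45RBhi libraries all lay above all CD45RBlo libraries, as did 2.68% of all genes (2.31% lay wholly below).

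Libraries of the same number deviated together, however, and with that number as a block (8 memory libraries) 10 members were higher and 1 was lower in CD45RBhi. Of all genes tested in that fit, 5.59% passed, 2.52% higher and 3.08% lower. In 21 of 53 members CD45RBhi was the higher library in all 4 pairs (39.6%), and in 2, Rbl2 and Rb1, the lower (3.77%), against 14.6% and 14.4% of all genes. The higher members act in replication start, nucleotide supply and mitosis. In licensing they were Cdc6 (2.21 ± 0.407, adjusted p = 0.01) and Cdc45. The latter was at 6.97, 4.51, 6.76 and 9.78 CPM in CD45RBhi and 3.74, 3.59, 3.95 and 5.48 in CD45RBlo replicates 1 to 4, a difference of 0.72 ± 0.177 (adjusted p = 0.0362), and its naive libraries were at 4.02, 2.07 and 6.01. In nucleotide supply the gene was Rrm2 (0.56 ± 0.115, adjusted p = 0.0176).

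Of the mitotic drivers, Ccna2 (1.47 ± 0.306, adjusted p = 0.0176), Ccnb2 (0.96 ± 0.214, adjusted p = 0.0236), Aurkb (1.15 ± 0.289, adjusted p = 0.0381) and Ccnb1 (0.72 ± 0.187, adjusted p = 0.0444) were higher in CD45RBhi with the block. Of the spindle genes, Nusap1 (1.35 ± 0.239, adjusted p = 0.0085), Birc5 (1.25 ± 0.264, adjusted p = 0.0186) and Kif20a (0.80 ± 0.202, adjusted p = 0.0389) were. Rbl2, the pocket protein, was the gene lower in CD45RBhi, with a log2 fold change of -0.29 ± 0.0630 (adjusted p = 0.0198), and its values above show CD45RBlo as the higher library in every pair. Mki67, Top2a, Cdk1 and Stmn1 did not follow, with -0.04 ± 0.120, 0.22 ± 0.121, 0.12 ± 0.203 and 0.04 ± 0.108 and adjusted p of 0.881, 0.312, 0.777 and 0.864.

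The blocked fit called fewer genes of any kind from 3 pairs than from 4. It called 707 genes in all with every pair, and 344, 667, 167 and 300 without pairs 1 to 4 in turn. Members called numbered 7 without pair 1 and 10 without pair 2. Without pair 3 only Aurkb was called, and without pair 4 only Nusap1 and, higher in CD45RBlo, E2f2. Of the members whose calls ended without pair 3, Cdc6, Ccna2 and Rbl2 had log2 fold changes of 1.98, 1.56 and -0.32 without that pair, against 2.21, 1.47 and -0.29 with it. Ccnb2 and Kif20a were at 0.82 and 0.93 without pair 3, against 0.96 and 0.80. Without pair 4, Aurkb, Birc5, Rrm2 and Kif20a had smaller values of 0.85, 0.98, 0.46 and 0.67, against 1.15, 1.25, 0.56 and 0.80. Cdc6, Cdc45, Ccnb2 and Rbl2 also shrank, to 2.07, 0.67, 0.91 and -0.25. Ccna2, Ccnb1 and Nusap1 did not, at 1.49, 0.73 and 1.47. With library totals as the scaling, 10 of the 11 were called, and Ccnb1 was not (adjusted p = 0.052).

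**Figure D3:**
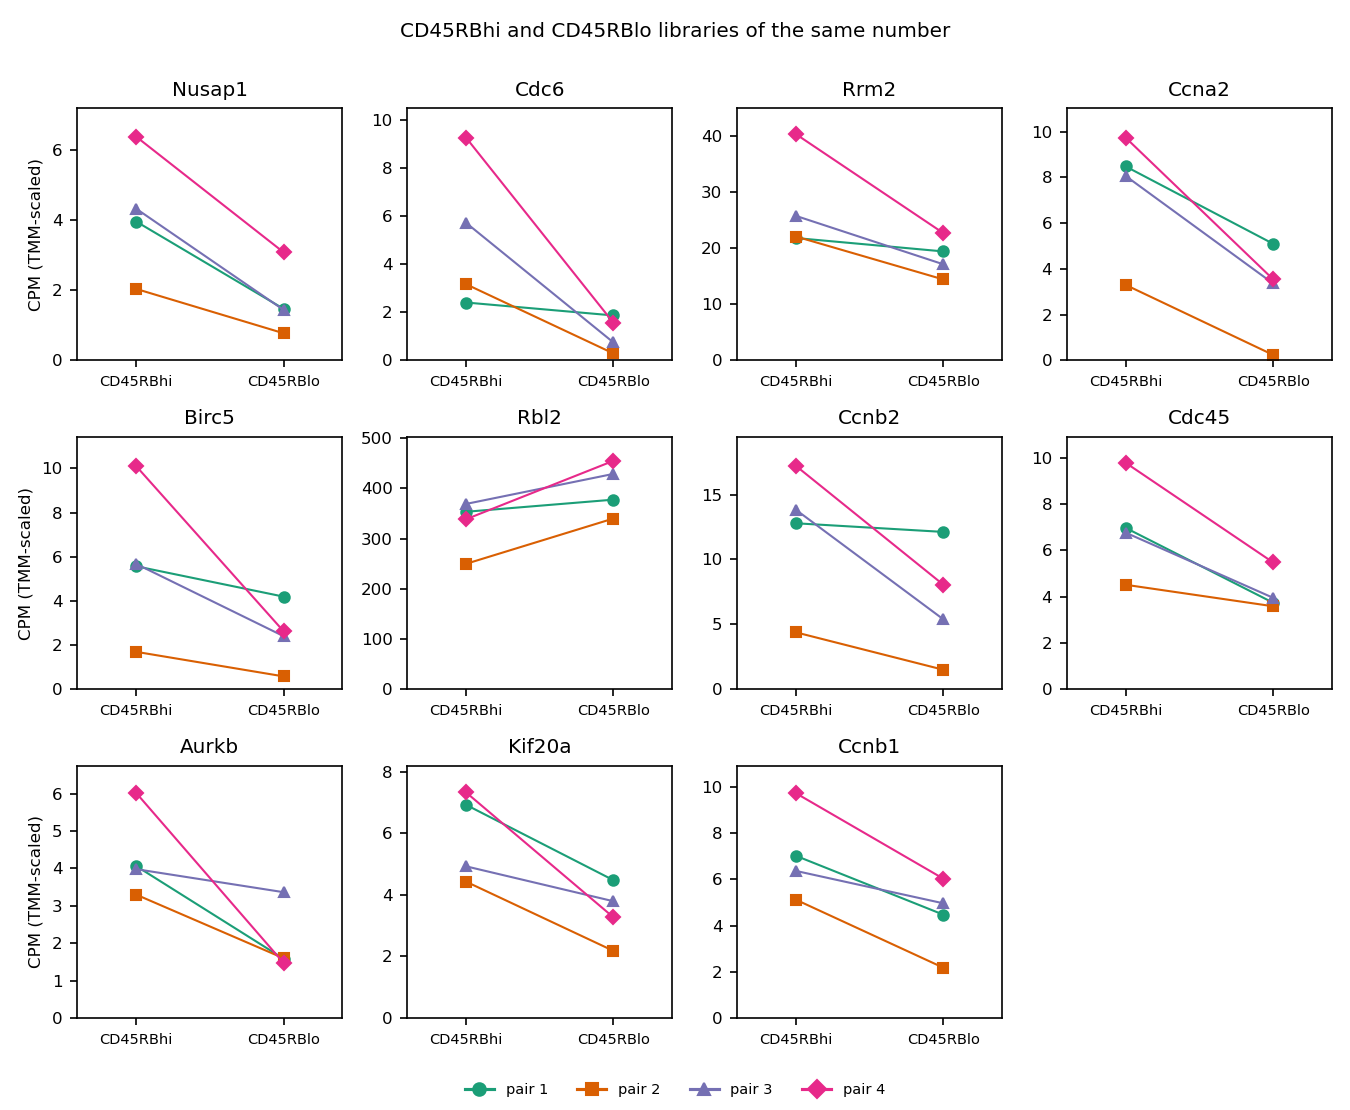
CPM of the 11 members called with the replicate block, in CD45RBhi and CD45RBlo libraries joined by replicate number. The 4 lines of each gene fall from CD45RBhi to CD45RBlo except for Rbl2, where they rise, and CD45RBhi replicate 4 (pair 4) is the highest point of the other 10 genes.

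The spread among memory libraries was shared by the mitotic genes. Their summed level was 58.0, 53.3 and 62.4 CPM in naive, 171, 112, 184 and 256.5 in CD45RBhi and 161, 88.1, 148 and 163 in CD45RBlo libraries. CD45RBhi replicate 4 was the highest of the 8 memory libraries for 18 of the 21 mitotic genes (85.7%), and for 10.5% of all genes tested. CD45RBlo replicate 2 was the lowest for 14 of the 21 (66.7%), and for 10.7% of all genes. Replicate 2 also stood apart in other markers, with the lowest summed level of 8 memory CD8 T cell markers in each group (9894, 6936, 8854 and 8410.3 CPM in CD45RBhi and 10619.8, 7050.1, 8369.7 and 8103 in CD45RBlo replicates 1 to 4) and the highest of B cell markers (202, 515, 285 and 346 and 204, 454, 272 and 269). Naive T cell markers in CD45RBhi were also highest there (582, 912, 738 and 821), as they were in CD45RBlo (409.8, 693, 455 and 549). The part of these cells in the mitotic levels was not tested.

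**Figure D4:**
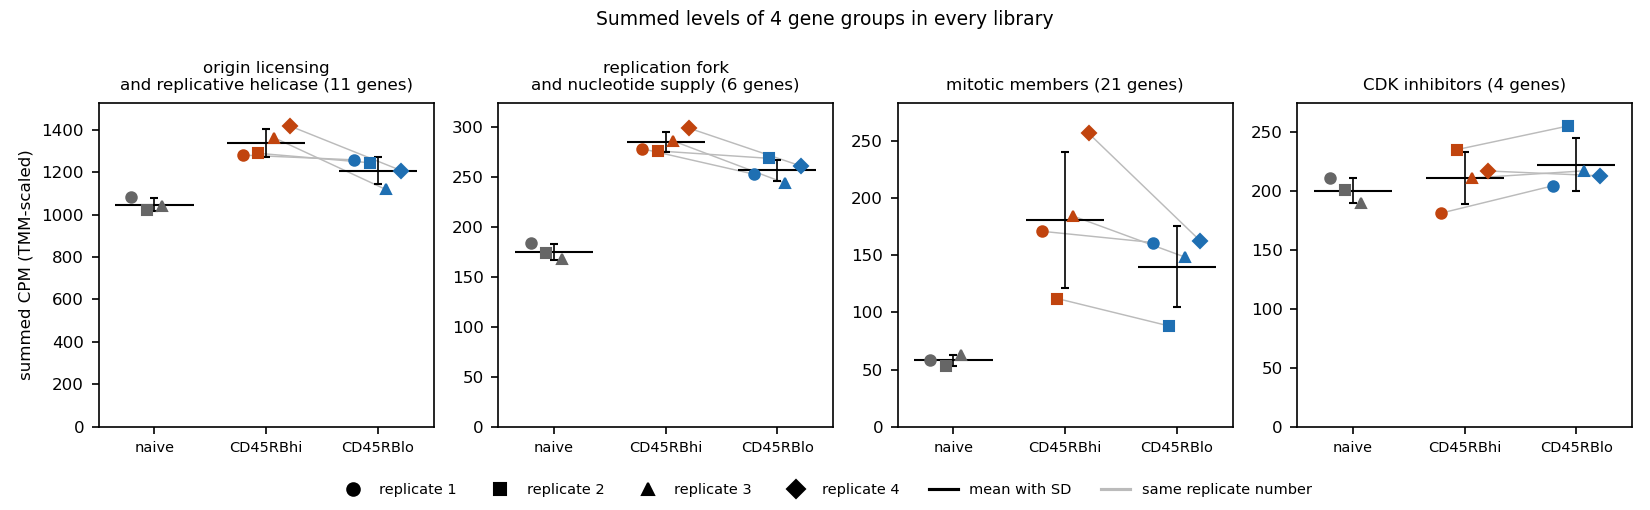
Summed CPM of 4 groups of members in each library (points) with mean ± SD, and gray lines joining memory libraries of the same number. The 21 mitotic genes lie at 53.3 to 62.4 in naive and 88.1 to 256.5 in memory libraries, with CD45RBhi replicate 4 highest.

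The rest of the pathway was read from 112 other cell cycle genes, of which 109 could be tested and Ccnd1, Cdkn1c and Cdkn2a could not. Against naive cells 42 were higher and 10 lower in CD45RBhi, and 37 were higher and 10 lower in CD45RBlo. In CD45RBhi these are 38.5% and 9.17% of the 109, beside 22.3% and 19.1% of all genes, and in CD45RBlo 33.9% and 9.17%, beside 22.4% and 19.8%. Rpa2, a subunit of the protein that coats single-stranded DNA, was at 84.4 ± 5.83 CPM in naive and rose by 1.62 ± 0.124 and 1.66 ± 0.124. Wee1, the kinase that holds Cdk1 inactive, was at 3.65 ± 0.662 CPM in naive and rose by 2.05 ± 0.215 and 2.28 ± 0.216. Prc1, which bundles the central spindle, rose by 3.24 ± 0.342 and 3.13 ± 0.342 from 1.44 ± 0.216 CPM. Racgap1, its partner in cytokinesis, rose by 0.63 ± 0.0751 and 0.61 ± 0.0751, and Ccng1, a target of p53, by 0.74 ± 0.102 and 0.84 ± 0.102. A gene outside the naming rule and chosen after its values were seen is Cdkn2b (p15), an inhibitor of Cdk4 and Cdk6 close to Cdkn2c, with 1, 3 and 1 reads in naive libraries and 0.903, 2.00, 1.79 and 1.83 CPM in CD45RBhi and 1.70, 1.65, 1.60 and 1.06 in CD45RBlo libraries (adjusted p = 3.53e-05 and 4.24e-05).

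Some genes of the same machinery fell in memory cells. The condensin subunit Smc4 was at 385, 376 and 433 CPM in naive, at 93.9, 118, 119 and 98.3 in CD45RBhi and at 95.1, 111, 127 and 115 in CD45RBlo libraries (-1.89 ± 0.114 and -1.83 ± 0.114). The cytokinesis kinesin Kif23, which acts with Racgap1, fell from 37.4 ± 1.59 CPM in naive to 9.47 ± 2.19 and 10.97 ± 3.71. The polymerase epsilon subunit Pole2 fell by 1.16 in CD45RBhi and by 1.29 in CD45RBlo on the log2 scale. The E2F partner Tfdp2 fell by 0.74 in CD45RBhi. The phosphatase Cdc25a, which activates cyclin-dependent kinases, fell by 0.58 in CD45RBlo. Both had mean levels below naive in the other memory group too. Per kilobase, Tfdp2 was at 1.58, 0.946 and 1.20 CPM in naive, CD45RBhi and CD45RBlo cells, and Cdc25a at 4.03, 2.80 and 2.70.

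Between the memory groups none of the 109 passed without the block. With it, Ttk (1.92 ± 0.456, adjusted p = 0.0304), a kinase of the spindle checkpoint, and Ube2c (2.35 ± 0.586, adjusted p = 0.0376), the enzyme that feeds ubiquitin to the anaphase-promoting complex, were higher in CD45RBhi. The polymerase alpha subunit Pola1 (-0.37 ± 0.0967, adjusted p = 0.0424) and Ccng2 (-0.22 ± 0.0590, adjusted p = 0.0459), a cyclin of resting cells, were lower. The 2 higher and the 2 lower genes are each 1.83% of the 109, below the 2.52% and 3.08% of all genes. Ttk and Ube2c were at 1.10, 0.260, 2.49 and 2.93 and 1.55, 1.30, 1.54 and 3.03 CPM in CD45RBhi and 0.680, 0.0484, 0.320 and 0.691 and 0.963, 0, 0.107 and 0.691 in CD45RBlo replicates 1 to 4, so these differences rest on few reads. Without 1 pair, 0 to 8 of the other cell cycle genes were called.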

How the data were processed

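RNA sequencing counts of 11 libraries (3 naive, 4 CD45RBhi, 4 CD45RBlo) were analysed. The deposited table gives raw counts, not normalized, as whole reads for each of 52636 Ensembl genes. Per the submitters' processing notes, SAMtools, featureCounts and DESeq2 were used with the builds mm10 and GRCm38. Strandedness, versions, annotation release and aligner: not given in the sources used here. Depth was 18.0 to 23.2 M counts per library. None of 15 pairs of replicate libraries was identical.

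From these counts, filterByExpr (minimum count 10) kept 13735 genes, which were scaled by TMM and fitted with 1 mean per group over all 11 libraries. The two-sided quasi-likelihood F test of edgeR compared groups, and p was adjusted by Benjamini-Hochberg over all genes tested (threshold 0.05). The biological coefficient of variation of this fit over all 11 libraries was 18.7%. This fit was tested on simulated data drawn without pairs, and the blocked fit described next was not tested that way. Deviations from group means of CD45RBhi and CD45RBlo libraries with the same number correlated at 0.191 to 0.452 across genes, and those with different numbers at -0.331 to 0.0284. The numbers were therefore taken as pairs, on the data's evidence alone, in a blocked fit of the 8 memory libraries (12637 genes, coefficient of variation 9.88%). Naive libraries were not paired with memory ones, since their correlations at equal numbers ran from -0.101 to 0.0565, and a block on the number over all 11 libraries was run as an alternative only. The 53 members, the 112 other cell cycle genes and the marker lists were chosen with earlier results of these data known. The level of 1 marker gene is not reported here. Any member could be named, and values in every library are given for 18 set members and for up to 10 called members of smallest p in each comparison and in the blocked fit. Of the other cell cycle genes, up to 4 per comparison and direction are named. Casc5, Sgol1 and Sgol2a stand in the table for Knl1, Sgo1 and Sgo2a. Positions and exon lengths came from GENCODE M21, and promoter windows from RefSeq (32851 windows). Other scalings, filters, DESeq2, a test against a 1.5-fold change and fits without single libraries were tried. R 4.3.3, edgeR 4.0.16, limma 3.58.1, DESeq2 1.42.0 and matplotlib 3.10.9 were used.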

Additional observations from a re-analysis of the deposited data

Results flagged for a closer look

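In groups of 4 libraries, a library was singled out where its gap to the nearest of the others exceeded 0.829 of the group's range. Of 106 groups of members checked, 7 held such a library, and chance flags about 1 in 20, or 5.3 of 106. In CD45RBhi, E2f1 was low in replicate 2 (3.51 CPM), Aurka was high in replicate 4 (6.59 CPM) and Bub1 was high in replicate 1 (1.20 CPM). In CD45RBlo, Rb1 was low in replicate 2 (36.5 CPM), Mcm6 was low in replicate 3 (314 CPM), and Mcm7 (109 CPM) and Aurkb (3.36 CPM) were high in replicate 3. The CD45RBlo values of Mcm7 all lay between 107 and 109 CPM, so its gap is small in size. Of the summed levels, that of the E2F factors and pocket proteins was low in CD45RBhi replicate 2 (302 CPM).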

How the results depend on the processing

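Called members against naive cells numbered 36 in CD45RBhi and 25 in CD45RBlo, 20 and 15 when tested against a 1.5-fold change, and 29 to 39 and 20 to 27 without 1 library. Of the 36 and 25, 25 and 18 were called whichever library was left out. Of all 13735 genes tested, 5694 and 5794 were called, and 2441 and 2612 against a 1.5-fold change. Without 1 library, calls over all genes tested numbered 4669 to 5843 and 4806 to 6164. Called other cell cycle genes numbered 24 and 20 against a 1.5-fold change, and 40 to 56 and 37 to 49 without 1 library. The median log2 fold change of members in CD45RBhi was 0.80 to 1.04 without 1 library, highest without naive replicate 2. Between the memory groups 0 members were called whichever library was left out, 1 with DESeq2 and 11 with the replicate block, which also gave 11 with DESeq2 size factors, 10 with library totals and, without pairs 1 to 4 in turn, 7, 10, 1 and 2. Of all genes, 6 to 15 were called between these groups without 1 library, 144 with DESeq2 and 707 with the replicate block. Called other cell cycle genes were 4 with the replicate block, 4 with DESeq2 size factors in it, 4 with library totals in it and 0 to 8 without 1 pair (8 without pair 1 and 3 without pair 2). For members against naive cells, a separate blocked fit over all 11 libraries and 13735 genes, although naive numbers were not taken as pairs, gave 33 and 24 calls. It ended the calls of Ccne2, Kif20a and Mcm3 in CD45RBhi and of Kif11 and Pcna in CD45RBlo and added Cenpf there. No called member changed sign under any setting run. Signs turned for 33 of 159 gene comparisons, none of them called. Low counts limit members that lie near 1 CPM or below in some groups, among them Bub1, Cenpf, Cdkn1a, Mcm10, Cdk1, Aurkb and Ccne2. In CD45RBlo replicate 2, Cdc6, Ccna2, Nusap1 and Birc5, which were called with the replicate block, also lay below 1 CPM. The causes of these changes were not tested.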
